A study of Mus musculus with 8 samples.

Results

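The fibroblasts of arthritic mouse joints under TNF inhibition were compared with those of healthy mice, to describe which classes of cell and which genes stayed away from the healthy level during treatment. The members were the cells that the authors annotated as 1 of 5 fibroblast classes (Lining, Mmp3+, Il6+, Cd200+ and Pi16+) and labelled either with the treatment "Il23mc + TNFi" or with the genotype WT in the 3 unsorted libraries. They were 4305 cells of 3 TNF-inhibited mice and 1703 cells of 3 WT mice, together 6008 of the 21731 annotated fibroblasts and of the 24227 annotated cells of the series. The WT mouse of the same library as the TNF-inhibited mice gave 541 of the WT cells. Untreated arthritic mice, with 4743 fibroblasts, are given beside the results.

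Single-cell RNA was measured in viable synovial cells of ankle and wrist joints, sorted as negative for the leukocyte proteins CD45 and GR-1. The arthritic mice carried the hTNFtg197 transgene (B6-Tg(TNF)197Gkl), which produces human TNF, and received Il23mc for 9 days, so that every arthritic group shared both the transgene and that agent. They were then untreated, treated with an antibody to human TNF, or treated with an antibody to mouse IL-17A, with 3 mice in each group. WT mice were untreated. All mice were 8 to 10 weeks old. The TNF-inhibited mice therefore differed from WT by the transgene, by Il23mc and by the antibody together, and each arthritic group was in a library of its own with 1 WT mouse. The library of FAP+ Pdpn+ sorted cells was not used here.

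Synovial fibroblasts form a lining layer that faces the joint cavity and secretes lubricin, and a sublining around vessels and connective tissue. In arthritis they release proteases that degrade cartilage, chemokines that recruit leukocytes and RANKL, the cytokine that drives osteoclast formation. Fibroblasts that express Pi16 and Dpp4 are known as a resting population of loose connective tissue in many organs.

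Each mouse was marked by an antibody that carries a short DNA tag, a hashtag, so the mouse is the replicate, and a cell is assigned to a mouse by its tag. The tags are shown because the comparison rests on them. Hashtags 1 to 3 marked the arthritic mice of a library and hashtag 4 its WT mouse, and all bases are in lower case because no part is singled out.
Hashtag 1: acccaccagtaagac
Hashtag 2: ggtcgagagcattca
Hashtag 3: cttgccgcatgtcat
Hashtag 4: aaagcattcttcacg

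The WT hashtag was weak. The median count of a cell's own hashtag was 49, 96 and 59 in the fibroblasts of the WT mice that shared a library with the untreated, the TNF-inhibited and the IL-17-inhibited mice, against 684, 1329 and 787.5 in TNF-inhibited mice 1, 2 and 3. Hashtag 4 had the highest raw count in 34.8%, 22.7% and 9.93% of the WT fibroblasts, and the highest after centring each hashtag in 100% of them. The hashtag antibodies bind CD45 and B2m, and B2m RNA was at 595 to 796 CPM (UMI counts scaled to a total of 1000000) in WT and at 3298 to 3984 CPM in TNF-inhibited fibroblasts. The part of antibody binding in the assignment of cells was not tested. Y-linked and Xist counts split the mice by sex: TNF-inhibited mice 1 and 2 had 1365 and 1516 cells with more Y-linked than Xist counts against 14 and 12 the other way, and mouse 3 had 4 against 794. The WT mouse of the untreated library had 1 such cell against 686, but those of the other libraries held cells of both kinds, 107 against 370 and 67 against 281. The WT hashtag of those libraries thus holds cells of both sexes. Whether each of them marks cells of a single mouse was not tested, and the 3 WT replicates are hashtags counted as mice. The counts of called genes over all fibroblasts and by class are also given without the cells of the rarer sex of each hashtag.

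The 3 libraries held 10879 to 13105 cell barcodes and 149149135 to 180057537 gene UMIs (unique molecular identifiers, counted once per captured RNA molecule), and shared 44 to 51 barcodes per pair of libraries. Summed over fibroblasts, WT mice had 4508588 to 7307067 UMIs and TNF-inhibited mice 12372684 to 34962428, with medians per cell of 9203 to 10516 and 13210 to 19172. Levels below are CPM of the UMIs summed per mouse and scaled by TMM. Among the fibroblast classes of the WT mice the median of Prg4, a lining marker, was highest in the Lining class, that of Il6 in the Il6+ class, that of Cd200 in the Cd200+ class and that of Pi16 in the Pi16+ class. The highest WT sum of the Mmp3+ class had 2555 CPM of Il6, above the 1665 to 2260 CPM of the Il6+ class, and Cd200 was higher in osteoblasts (836 to 1047 CPM) than in the Cd200+ class (387 to 416 CPM), all without TMM scaling. The leukocyte gene Ptprc, which encodes CD45, was at 0 in every WT fibroblast class. Under TNF inhibition Mmp13, listed with Mmp3 as a marker of the Mmp3+ class, was higher in the Cd200+ class (4964 to 8071 CPM without TMM scaling) than in the Mmp3+ class (1967 to 2913).

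The mix of fibroblast classes did not return to that of healthy joints. Mmp3+ cells made up 50.4% ± 8.85 of the fibroblasts of TNF-inhibited mice and 3.70% ± 1.90 of those of WT mice (SD, n = 3 each). Pi16+ cells made up 0.216% ± 0.150 and 43.0% ± 1.16. Neither class overlapped between the groups, and the exact two-sided permutation test over mice gave p = 0.1 for each, the smallest that 3 against 3 allows, and 0.25 after adjustment over the 5 classes. The Il6+ share was 30.4% ± 7.18 against 37.4% ± 0.831, the Lining share 8.88% ± 3.54 against 6.62% ± 1.10 and the Cd200+ share 10.2% ± 4.06 against 9.33% ± 0.563 (exact permutation p = 0.3, 0.4 and 1). By mouse, the Pi16+ class held 6, 1 and 2 cells under TNF inhibition and 331, 232 and 173 in WT, while the Mmp3+ class held 935, 986 and 338 against 16, 17 and 24. Of the WT Pi16+ cells of the TNF-inhibited and IL-17-inhibited libraries, 41 of 232 and 26 of 173 had more Y-linked than Xist counts. In untreated mice 1, 2 and 3 the Mmp3+ share was 37.3%, 36.1% and 43.0% and the Pi16+ share 1.40%, 0.933% and 1.25%. Their Il6+ share was 50.6%, 50.5% and 42.5%, their Lining share 6.13%, 6.63% and 5.67% and their Cd200+ share 4.60%, 5.89% and 7.59%. The shares of untreated mice were not tested.

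**Figure D1:**
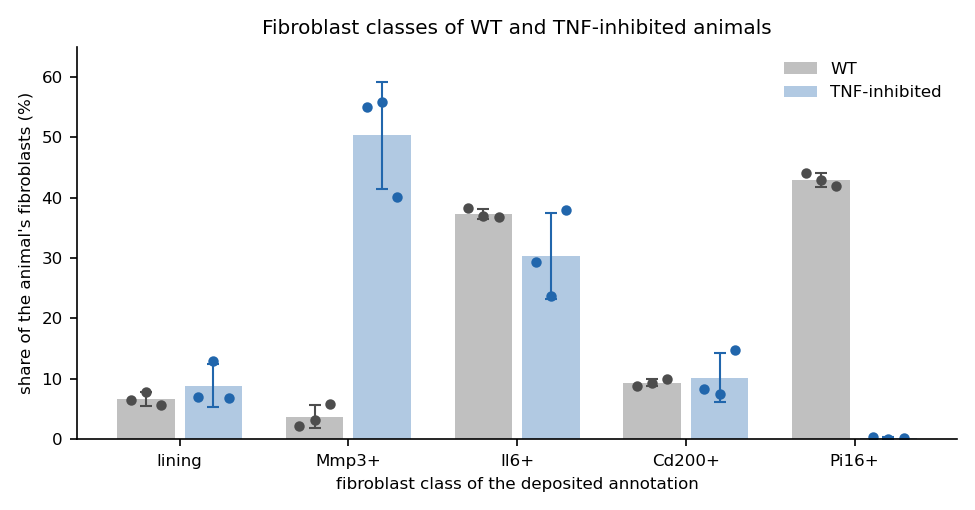
Share of each fibroblast class among the fibroblasts of each mouse, in percent, for WT and TNF-inhibited mice. Bars are means, points are mice and lines are SD (n = 3). Pi16+ cells are 43.0% of WT and 0.216% of TNF-inhibited fibroblasts on average, and Mmp3+ cells 3.70% and 50.4%.

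Of 14348 genes tested over all fibroblasts, 5588 differed between TNF-inhibited and WT mice, 38.9% of those tested, with 2812 higher (19.6%) and 2776 lower (19.3%) (edgeR quasi-likelihood test with Benjamini-Hochberg adjustment over all genes, adjusted p under 0.05). A total of 877 genes (6.11%) differed by more than 2-fold, 425 higher (2.96%) and 452 lower (3.15%). Against the WT mouse of the same library alone, 2788 genes (19.4%) passed, 1353 higher (9.43%) and 1435 lower (10%), where the lone WT mouse is assumed to vary like the mice of the other groups. Without the cells of the rarer sex, 5517 genes passed. The median log2 difference of all genes tested was 0.0087. In the same fit untreated arthritic mice differed from the same WT mice in 4116 genes (28.7%, with 14.4% higher and 14.3% lower), and TNF-inhibited from untreated mice in 797 (5.55%), 363 higher (2.53%) and 434 lower (3.02%). The first 2 comparisons share the WT mice, and in the last the treatment and the library cannot be told apart. In sums over cells of a class or of all classes, fewer cells of a type and less RNA per cell cannot be told apart.

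Within classes, 2111 of 10103 genes differed from WT in Lining fibroblasts (20.9%, 10.5% higher and 10.4% lower), 1302 of 11439 in Il6+ (11.4%, 6.35% and 5.04%), 777 of 12751 in Mmp3+ (6.09%, 4.16% and 1.93%) and 742 of 9264 in Cd200+ fibroblasts (8.01%, 4.44% and 3.57%). Without the cells of the rarer sex these counts were 1943, 1296, 601 and 754. The Il6+ count was 707 without the WT mouse of the untreated library, and the Cd200+ count was 467 without that mouse. With 16 cells drawn per mouse and class, 558 genes passed in Lining, 210 in Mmp3+, 94 in Il6+ and 47 in Cd200+ fibroblasts. Depth was not equal between these sums. The WT sums of 16 cells held 247269 to 320888 UMIs in Lining and 119368 to 184614 in Mmp3+ fibroblasts. They held 123714 to 136380 in Il6+ and 127795 to 182085 in Cd200+ fibroblasts. The split of the Mmp3+ calls moved with the scaling: 531 higher and 246 lower with TMM, 413 and 286 with upper-quartile scaling, and 505 and 615 with DESeq2, where the median log2 difference of all genes was 0.13, 0.044 and -0.022. The WT side of that class was thin, with 119721 to 204102 UMIs per mouse against 6111240 to 22419015, and its median SE was 0.469 on the log2 scale, against 0.285 in Lining, 0.227 in Il6+ and 0.314 in Cd200+ fibroblasts.

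Matrix proteases stayed high. Mmp3, stromelysin-1, was at 1091, 1315 and 912 CPM in the WT mice (untreated, TNF-inhibited and IL-17-inhibited library, the order used throughout), at 15211, 14830 and 15507 CPM in untreated mice and at 17764, 16429 and 13689 CPM in TNF-inhibited mice. Every arthritic mouse was above every WT mouse, as was the case in 1 direction or the other for 44.9% of all genes between TNF-inhibited and WT mice. The log2 difference from WT was 3.85 (SE 0.21, adjusted p = 6.97e-08) under TNF inhibition and 3.78 in untreated mice. Mmp13, a collagenase, was at 160, 274 and 132 CPM in WT, 1065, 1150 and 1513 CPM in untreated and 1790, 2132 and 2598 CPM in TNF-inhibited mice, with no overlap between the 3 groups. It rose by 3.53 over WT (SE 0.25, adjusted p = 4.66e-07), and its difference from untreated mice, 0.81, did not pass (adjusted p = 0.0554). Mmp12, a macrophage-type elastase, rose by 4.32 over WT and was also higher than in untreated mice (1.40). Timp3, an inhibitor of metalloproteinases, was at 611, 411 and 392 CPM in WT and 61.1, 43.8 and 72.3 CPM under TNF inhibition, all below WT, and fell by 3.00 (SE 0.32, adjusted p = 1.27e-05), or by 1.71 with each class weighted equally, that is, with the CPM of the classes tested on their own averaged in each mouse and compared by limma as log2(CPM + 1). That alternative leaves out the Pi16+ class, and the added 1 understates the change of low genes. With it Mmp3 was at 2.10, Mmp13 at 2.74 and Mmp12 at 2.64, and all 3 passed as higher. Of the 19 proteases and inhibitors, 13 were higher, 4 lower and 2 did not pass, with a median log2 difference of 0.77, and 10 and 3 passed against the WT mouse of the same library. The 4 lower, a share near the 19.3% of all genes, were Timp2, Timp3, the aggrecanase gene Adamts4 and Plau (urokinase).

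The acute-phase genes, which encode secreted proteins induced in inflammation, had the largest median distance from WT of the lists examined: 9 of 9 were higher, with a median log2 difference of 3.64, also against the WT mouse of the same library. Saa3 (ENSMUSG00000040026, GRCm38 chr7:46711998-46715700, minus strand), a serum amyloid A gene, was at 2168, 2853 and 818 CPM in WT, 47951, 40597 and 39373 CPM in untreated and 58145, 58773 and 31719 CPM in TNF-inhibited mice. Arthritic mice were all above WT, and the TNF-inhibited values spanned the untreated ones. The difference from WT was 4.67 under TNF inhibition (SE 0.43, adjusted p = 3.23e-06), 4.12 against the WT mouse of the same library and 4.45 in untreated mice. Lcn2, lipocalin 2, which binds iron carriers of bacteria, was at 255, 533 and 319 CPM in WT and at 7790, 10302 and 8511 CPM under TNF inhibition (4.59, SE 0.31). Hp, haptoglobin, which binds free haemoglobin, was at 246, 548 and 227 against 9519, 13177 and 6083 CPM (4.82, SE 0.40). With each class weighted equally Saa3 was at 3.09, Lcn2 at 3.01 and Hp at 4.46. Saa1 and Saa2 rose by 2.64 and 3.64, and since they are near-identical copies their separate values are uncertain. Markers of neutrophils, cells that also express Lcn2, summed to 16.1 to 17.6 CPM in WT and 34.9 to 39.0 CPM in TNF-inhibited fibroblasts, with Ltf at 0 in both and 2 of 3 tested genes higher. Their part in the acute-phase values was not tested.

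Complement genes rose with them: 8 of 12 were higher and 2 lower (median 1.24), the same numbers as against the WT mouse of the same library. C3, the central component, was at 1504, 1050 and 1151 CPM in WT, 8690, 8143 and 8516 CPM in untreated and 7298, 5672 and 4113 CPM in TNF-inhibited mice. The TNF-inhibited values lay between the other groups without overlap. Their difference was 2.20 from WT (SE 0.19, adjusted p = 1.68e-06) and -0.57 from untreated mice, which did not pass (adjusted p = 0.0748). Cfb, a component of the alternative pathway, was at 251, 260 and 224 CPM in WT and 2267, 2218 and 1766 CPM under TNF inhibition (3.09, SE 0.15, adjusted p = 2.60e-08). The 2 lower genes, a share near the 19.3% of all genes, were Cd55 (-2.43) and Cd59a (-0.62), which protect cells from complement. The Cd59a call was lost under 6 alternatives, among them leaving out the cells of the rarer sex (-0.50, adjusted p = 0.0945), the WT mouse of the TNF-inhibited library (-0.38, adjusted p = 0.162) or TNF-inhibited mouse 1 or 2 (-0.56 and -0.52), and with each class weighted equally (-0.19, adjusted p = 0.559).

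Most genes of the lymphoid-niche list were above WT. Cxcl13, a B-cell chemokine, was at 44.5, 26.4 and 26.5 CPM in WT and 580, 683 and 384 CPM under TNF inhibition, with no overlap, and rose by 4.06 (SE 0.32, adjusted p = 1.04e-06). Cxcl12, which holds and attracts lymphocytes, rose by 1.41 (SE 0.15), Il33 by 1.53 and Ccl19 by 1.30, and 5 of the 7 lymphoid-niche genes were higher and none lower (median 1.30). Ccl19 was below its untreated level (-0.79, adjusted p = 0.0371). Of the neutrophil attractants, 4 of 6 were higher (median 1.36), 2 of them also against the WT mouse of the same library. Csf3, the granulocyte growth factor, was at 15.4, 26.1 and 3.62 CPM in WT and 129, 201 and 215 CPM under TNF inhibition (3.56, SE 0.45). Cxcl5 rose by 2.43. Cxcl1 rose by 0.50, a call lost under 5 alternatives, among them the WT mouse of the same library (0.36, adjusted p = 0.276) and leaving out the WT mouse of the untreated library (0.45, adjusted p = 0.0572) or TNF-inhibited mouse 3 (0.36, adjusted p = 0.0513), while Cxcl2 was at 0.41 (adjusted p = 0.245) with overlapping values. Among attractants of monocytes and lymphocytes, 5 of 8 were higher, led by Ccl20 (3.04), and the eosinophil attractant Ccl11 fell by 2.05, which did not pass with each class weighted equally (-0.33, adjusted p = 0.157).

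Tnfsf11, which encodes RANKL, was at 11.8, 5.95 and 7.24 CPM in WT and 140, 141 and 100 CPM under TNF inhibition. The groups did not overlap, and the difference was 3.89 (SE 0.28, adjusted p = 5.35e-07) against 4.14 in untreated mice. With each class weighted equally Tnfsf11 was at 2.77. Its decoy receptor Tnfrsf11b did not pass (-0.59, adjusted p = 0.0718) and overlapped WT. It did pass as lower with each class weighted equally (-1.90, adjusted p = 1.105e-05), with the 6 TNF-inhibited and WT mice alone (adjusted p = 0.0490) and without the WT mouse of the untreated library (-0.79, adjusted p = 0.0352). Il6 was at 1037, 948 and 737 CPM in WT and 2515, 1647 and 2511 CPM under TNF inhibition, a rise of 1.29 (adjusted p = 4.48e-05), and Lif, of the same cytokine family, rose by 1.78. Csf1 (-0.68), the macrophage growth factor, and Osmr (-0.37) fell, and neither passed against the WT mouse of the same library or with each class weighted equally (-0.25 and -0.04), nor did Osmr without the WT mouse of the untreated library (-0.31, adjusted p = 0.0535). Of these 9 osteoclast-related signals 3 were higher and 2 lower (median 0.18), the latter a share near the 19.3% of all genes.

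**Figure D2:**
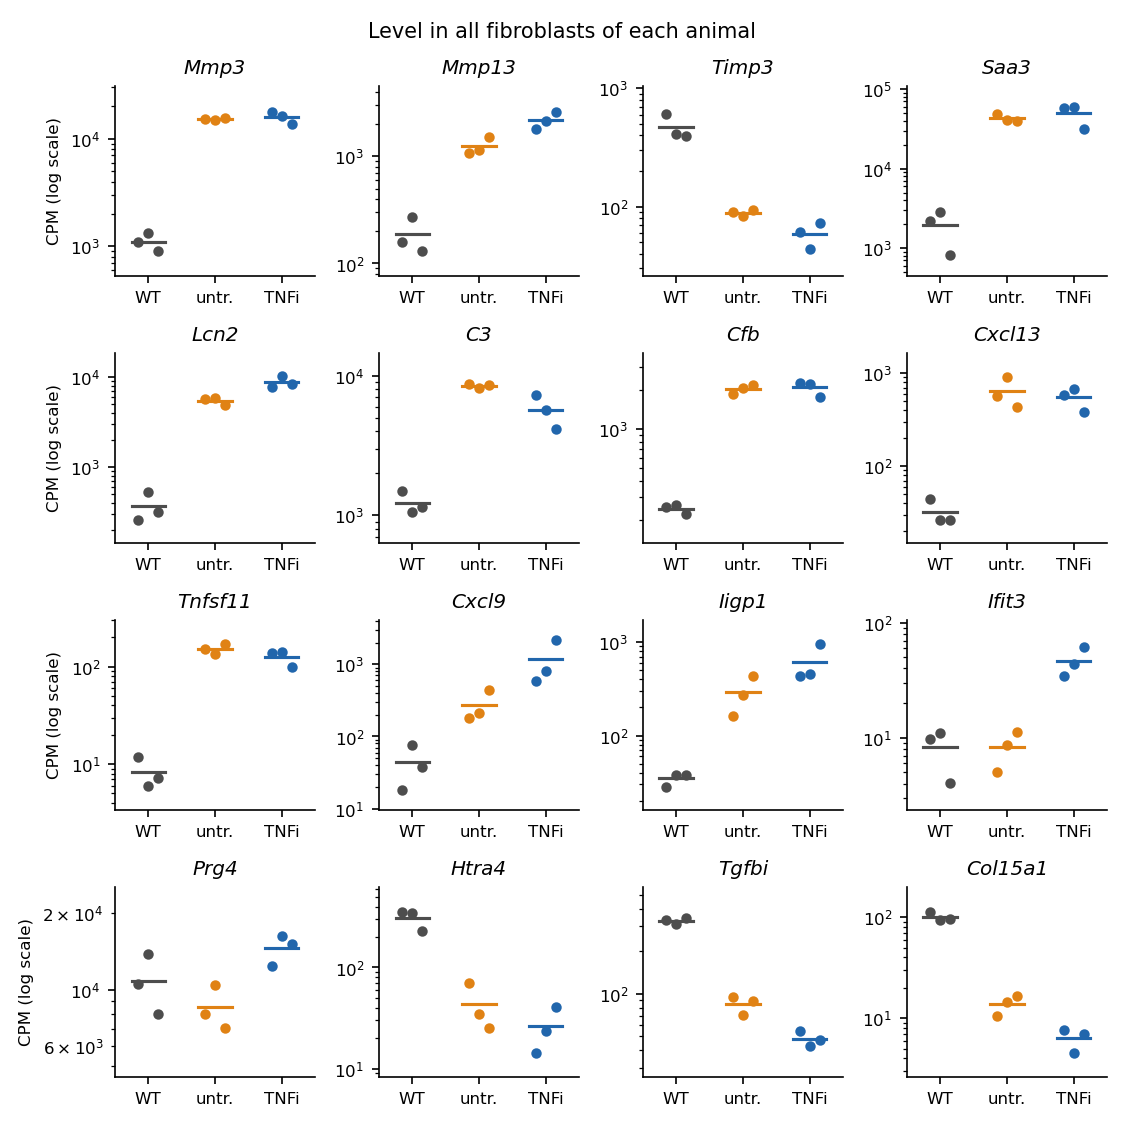
Level of 16 genes in each mouse, in CPM of the UMIs summed over all fibroblasts, on a log axis, for WT, untreated and TNF-inhibited mice; each point is a mouse. Mmp3, Saa3, Cfb and Tnfsf11 are at like levels in both arthritic groups and above WT, Ifit3 is highest in the TNF-inhibited mice, and Col15a1, Tgfbi and Htra4 are below WT.

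In many interferon-inducible genes TNF-inhibited mice stood away from both WT and untreated mice, as they did in genes of other lists such as Mmp12, Col15a1 and Thbs1. Treatment and library cannot be told apart in the comparison with untreated mice. Of 19 tested genes of the antiviral list, 17 were higher than WT and none lower (median 2.00) under TNF inhibition, against 8 and none in untreated mice, and 11 were higher than in untreated mice and none lower, where 2.53% of all genes were higher. Against the WT mouse of the same library 10 of the 19 passed. Of 18 tested genes typical of the response to interferon-gamma, 17 were higher than WT (median 3.10), 9 were higher and 1 lower in untreated mice, 7 were higher than in untreated mice, and 11 passed against the WT mouse of the same library. Irf1, a transcription factor of this response, was the exception in the latter list (-0.41, adjusted p = 0.178), and Ifit2 (0.03) and Cmpk2 (0.55) did not pass in the former.

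The promoters of Ifit3, Gbp2 and Cxcl10 are shown because their lists hold the letters of an interferon-stimulated response element often. The sequences are RefSeq's for GRCm38.p6, 250 bases before to 50 after the start, on the gene's strand (Ifit3 chr19:34583279-34583578 plus, Gbp2 chr3:142620413-142620712 plus, Cxcl10 chr5:92348840-92349139 minus). Capitals mark matches on either strand to the response element, read as GAAA, any 2 bases and GAAA, or to a form of the kappaB site, read as GGGA, any 2 bases and TTCC. No matches of these 2 motifs overlap in the 3 sequences.
Ifit3: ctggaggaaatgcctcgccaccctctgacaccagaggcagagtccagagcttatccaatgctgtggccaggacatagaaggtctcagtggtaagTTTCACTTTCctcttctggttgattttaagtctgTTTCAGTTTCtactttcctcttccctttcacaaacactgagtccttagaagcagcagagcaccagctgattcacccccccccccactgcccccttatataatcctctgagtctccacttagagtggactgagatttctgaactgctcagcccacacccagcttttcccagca
Gbp2: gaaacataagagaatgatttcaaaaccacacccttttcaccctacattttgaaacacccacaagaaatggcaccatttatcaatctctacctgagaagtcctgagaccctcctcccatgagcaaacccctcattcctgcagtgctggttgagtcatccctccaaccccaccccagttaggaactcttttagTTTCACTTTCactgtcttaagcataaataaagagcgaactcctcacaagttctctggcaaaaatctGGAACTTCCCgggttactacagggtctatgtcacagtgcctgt
Cxcl10: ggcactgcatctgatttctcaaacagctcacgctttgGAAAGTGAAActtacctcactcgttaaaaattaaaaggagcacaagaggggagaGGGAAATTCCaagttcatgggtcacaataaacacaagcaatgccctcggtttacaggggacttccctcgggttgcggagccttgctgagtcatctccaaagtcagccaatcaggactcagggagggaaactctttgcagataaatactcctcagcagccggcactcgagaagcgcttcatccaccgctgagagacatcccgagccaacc

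The response-element letters stood in 1131 of 32851 promoters of this length (3.44%), in 10 of the 16 antiviral-list promoters found in the table (62.5%) and in 10 of the 14 of the interferon-gamma list (71.4%). They stood in 1 of 7 acute-phase promoters (14.3%), that of Saa3, and in none of 6 of the lining list. The kappaB letters stood in 482 of all promoters (1.47%), in 3 of 14 of the interferon-gamma list (21.4%: Cxcl10, Gbp2 and Gbp5) and in 1 of 16 of the antiviral list, that of Ifit2. These matches describe letters in the window and not bound sites.

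Ifit3 (ENSMUSG00000074896, chr19:34583531-34588731, plus strand), an antiviral gene with 2 response-element matches in the promoter shown, was at 9.68, 11.1 and 4.02 CPM in WT, 5.02, 8.72 and 11.2 CPM in untreated and 34.1, 43.4 and 61.4 CPM in TNF-inhibited mice. WT and untreated values overlapped and all TNF-inhibited values were above both. The log2 difference from WT was 2.43 (SE 0.44, adjusted p = 8.30e-04) under TNF inhibition and 0.02 (adjusted p = 0.985) in untreated mice, and that from untreated mice was 2.41 (adjusted p = 0.00836). Against the WT mouse of the same library it was 2.05 and did not pass (adjusted p = 0.0634). Its near-identical copy Ifit3b makes the count of either gene uncertain. Gbp2, an interferon-inducible GTPase, was at 146, 201 and 164 CPM in WT, 157, 251 and 319 in untreated and 366, 427 and 1093 in TNF-inhibited mice. It rose over WT by 1.88 (SE 0.40, adjusted p = 0.00237), while its difference from untreated mice, 1.37, did not pass (adjusted p = 0.0574).

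Cxcl10, a T-cell chemokine whose promoter holds both motifs, was at 118, 197 and 125 CPM in WT, 250, 292 and 432 in untreated and 746, 836 and 2271 in TNF-inhibited mice. The 3 groups did not overlap. It rose by 3.13 over WT (SE 0.44, adjusted p = 1.05e-04) and by 1.98 over untreated mice (adjusted p = 0.023). Cxcl9, which signals through the same receptor, was at 18.0, 75.8 and 37.4 CPM in WT, 178, 214 and 434 in untreated and 591, 810 and 2152 in TNF-inhibited mice, also without overlap, with differences of 4.77 from WT (SE 0.64, adjusted p = 7.44e-05) and 2.10 from untreated mice (adjusted p = 0.0451). Iigp1, an interferon-gamma-inducible GTPase, was at 28.3, 38.0 and 38.0 CPM in WT and 432, 460 and 963 under TNF inhibition (4.16, SE 0.43). TNF-inhibited mouse 3 was the highest of its group for each of these 5 genes. This mouse was also the one with mostly Xist-positive cells.

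**Figure D3:**
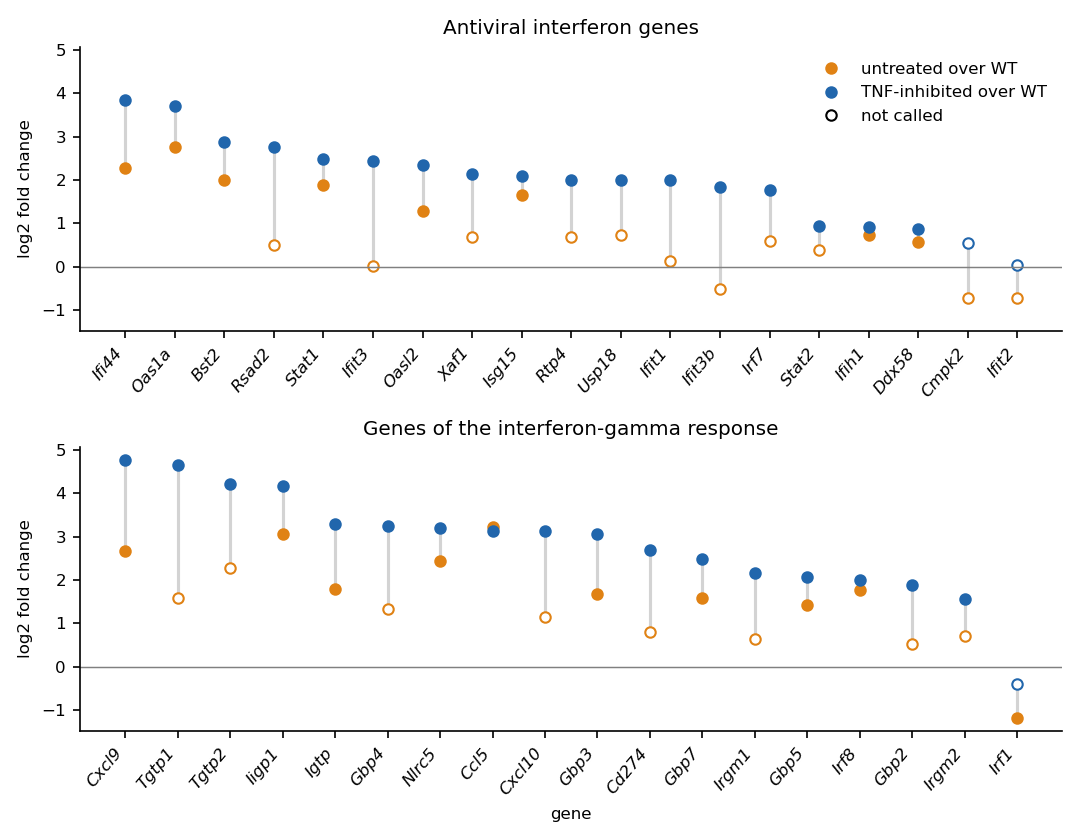
Log2 difference from WT over all fibroblasts for each gene of the antiviral list and of the interferon-gamma list, in untreated and in TNF-inhibited mice, which share the 3 WT mice. Ifit3 is at 0.02 in untreated and 2.43 in TNF-inhibited mice, and Cxcl9 at 2.67 and 4.77.

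Antigen-presentation genes had 10 of 13 tested members higher and none lower (median 2.02), and 9 passed against the WT mouse of the same library. B2m, the light chain of MHC class I, was at 595, 750 and 796 CPM in WT, 1754, 2037 and 2616 in untreated and 3298, 3671 and 3984 in TNF-inhibited mice. The groups were fully separate, with differences of 2.35 from WT (SE 0.16, adjusted p = 2.83e-07) and 0.77 from untreated mice (adjusted p = 0.0181). H2-K1, a class I heavy chain that shares sequence with H2-D1 and H2-Q4 and is therefore uncertain as a separate gene, rose by 2.42 over WT and 0.67 over untreated mice. The peptide transporter Tap1 (2.91) and the immunoproteasome genes Psmb8 (2.91) and Psmb9 (3.04) rose in like measure. Of the class II genes, H2-Ab1 rose by 2.87, from 0.956, 0.991 and 2.81 to 11.9, 8.03 and 12.7 CPM, and Cd74 did not pass (1.71, adjusted p = 0.122). Leukocyte markers summed to 1.65 to 4.06 CPM in WT, with Ptprc at 0, and to 8.63 to 26.4 CPM under TNF inhibition, with Cd3e at 0 and Lyz2 the 1 of 4 tested that was higher (2.83). Their part in the class II values was not tested.

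Most genes of the Pi16 list were lower than in WT. Of 14 sublining genes of the Pi16 list, 11 were lower and 1 higher (median -2.09). Dpp4, a marker of the resting Pi16+ population, was at 25.3, 16.8 and 21.9 CPM in WT and 1.35, 0.708 and 0.889 under TNF inhibition, without overlap (-4.42, adjusted p = 6.35e-07). With each class weighted equally Dpp4 was at 0.051 and did not pass (adjusted p = 0.904). Smpd3, a sphingomyelinase gene, fell by 5.32 (2.91 with classes weighted equally) and Col15a1, a basement-membrane collagen, by 4.01. Col15a1 was at 113, 94.3 and 96.9 CPM in WT, 10.6, 14.4 and 16.4 in untreated and 7.66, 4.55 and 6.94 in TNF-inhibited mice, and so was also below its untreated level (-1.15, adjusted p = 0.0149). Pi16 itself fell by 0.78 (adjusted p = 0.0268), from 670, 619 and 492 to 459, 255 and 325 CPM. That call was lost against the WT mouse of the same library (-0.84, adjusted p = 0.138), with a hashtag margin of at least 1 (adjusted p = 0.0569) and without the WT mouse of the untreated (-0.66, adjusted p = 0.0982) or the TNF-inhibited library (-0.74, adjusted p = 0.0700) or TNF-inhibited mouse 2 (-0.60, adjusted p = 0.106) or 3 (-0.72, adjusted p = 0.0677). With each class weighted equally the sign of Pi16 turned (1.43), and within Il6+ fibroblasts it rose by 1.57. Ly6a, the stem-cell antigen Sca-1, was the higher member (0.67), and did not pass against the WT mouse of the same library (0.63, adjusted p = 0.0685). In the same sums markers of bone cells were at 347 to 546 CPM in WT and 79.2 to 181 under TNF inhibition, those of Schwann cells at 44.3 to 52.7 and 9.47 to 17, and those of keratinocytes at 144 to 366 and 77.9 to 109, with 2 of 5, 2 of 3 and 1 of 7 tested genes lower. Their part in the lower genes was not tested.

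Of 10 lining genes, 7 were lower and 2 higher (median -1.57). Prg4, lubricin, the most abundant of them, was at 10496, 13838 and 7990 CPM in WT and 12353, 16209 and 15170 under TNF inhibition, with overlap, and did not pass (0.44, adjusted p = 0.136), though it did without the WT mouse of the TNF-inhibited library (0.66, adjusted p = 0.0424). Htra4, a secreted serine protease gene, was at 355, 344 and 231 CPM in WT and 14.4, 23.4 and 40.6 under TNF inhibition, without overlap (-3.61, SE 0.44, adjusted p = 3.64e-05). Clic5, an intracellular chloride channel gene, fell by 3.31. The 2 higher genes, a share near the 19.6% of all genes, were Thbs4 (2.73), a matrix thrombospondin, and Pdpn (0.94), podoplanin. Cd200 overlapped WT (-0.15, adjusted p = 0.737), whereas it was lower in untreated mice (-0.99, adjusted p = 0.0273). Without TNF-inhibited mouse 3 Cd200 did pass as lower than WT (-0.63, adjusted p = 0.0368). Dkk3 rose by 0.62 over all fibroblasts, but did not pass against the WT mouse of the same library (0.54, adjusted p = 0.0954) and was at -0.14 with each class weighted equally.

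Of the matrix genes more were lower than higher. Over all fibroblasts Col1a1 (0.14, adjusted p = 0.621) and Col3a1 (0.31, adjusted p = 0.276), the main fibril-forming collagens, overlapped WT, but their distance from WT differed between classes (adjusted p = 0.00634 and 0.0155). Both rose in Mmp3+ cells (1.26 and 0.93), and in Lining cells Col3a1 rose by 1.03 and Col1a1 did not pass (-0.43, adjusted p = 0.208). Over the 21 collagen and matrix genes 4 were higher, a share near the 19.6% of all genes, and 9 lower (median -0.27). Tnc, tenascin C, rose from 38.2, 40.3 and 51.9 to 313, 251 and 238 CPM (2.63, SE 0.15), and the crosslinking enzyme gene Lox by 1.46. Thbs1, thrombospondin 1, was at 725, 738 and 674 CPM in WT, 255, 300 and 181 in untreated and 115, 59.6 and 99.7 in TNF-inhibited mice. It was thus below both other groups, by 2.96 from WT (SE 0.25) and by 1.42 from untreated mice (adjusted p = 0.00924). Eln, elastin, fell by 3.00. With each class weighted equally Thbs1 was at -0.94 and Eln at -1.40. Of 9 leucine-rich proteoglycans 3 were higher (Bgn, Fmod and Lum) and 5 lower, led by Aspn (-2.45, or -1.21 with classes weighted equally).

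Genes tied to TGF-beta and contraction included 6 of 12 that were lower (median -0.56). Tgfbi, a secreted TGF-beta-induced protein gene, was at 331, 311 and 342 CPM in WT, 94.6, 70.7 and 89.5 in untreated and 55.0, 42.7 and 47.0 in TNF-inhibited mice. The 3 groups were separate, with differences of -2.76 from WT (SE 0.13, adjusted p = 2.36e-08) and -0.81 from untreated mice (adjusted p = 0.00768). Acta2, smooth-muscle actin, was at 5.26, 12.6 and 8.64 CPM in WT, 30.6, 20.2 and 25.7 in untreated and 8.46, 8.06 and 9.61 in TNF-inhibited mice. Under TNF inhibition it did not pass against WT (0.00, 95% interval -0.53 to 0.54, adjusted p = 0.995), and it was lower than in untreated mice (-1.55, adjusted p = 0.00444). Mural-cell markers, of cells that express Acta2, summed to 43.0 to 107 CPM in WT and 22.1 to 26.9 under TNF inhibition, with 3 of 5 lower, and their part in these values was not tested. Of 17 Wnt and Notch genes 3 were higher, a share near the 19.6% of all genes, and 8 lower. Rspo3 (2.20), a Wnt amplifier, was among the higher genes. Among the lower was the Wnt inhibitor Dkk2 (-2.55), which was also below untreated mice (-1.63, adjusted p = 0.0192). In the IGF system 2 of 9 were higher, a share near the 19.6% of all genes, and 4 lower. The higher ones, Igfbp4 and Igfbp7, did not pass against the WT mouse of the same library (adjusted p = 0.139 and 0.0813), and of the lower ones Igf1 did not with each class weighted equally (adjusted p = 0.995).

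Metabolic and oxidant genes were above WT. Of 20 glycolysis and hypoxia genes 16 were higher and 1, Pfkp, lower (median 1.16), led by the lactate exporter gene Slc16a3, at 5.02, 7.60 and 6.23 CPM in WT and 53.6, 23.6 and 78.5 under TNF inhibition (3.05, adjusted p = 1.25e-04). With each class weighted equally Slc16a3 was at 0.82 and did not pass (adjusted p = 0.0589). The glucose transporter gene Slc2a1 rose by 1.89 and was also above its untreated level (0.64, adjusted p = 0.0333). Of 11 oxidant and antioxidant genes 9 were higher and 1 lower. Nos2, inducible nitric oxide synthase, was at 23.4, 47.1 and 29.7 CPM in WT and 322, 368 and 593 under TNF inhibition, without overlap. Its difference was 3.68 (SE 0.36), or 1.20 with each class weighted equally. Cybb, the phagocyte NADPH oxidase subunit, rose by 4.75 in the sums over all fibroblasts. The leukocyte markers of these sums were at 1.65 to 4.06 CPM in WT and 8.63 to 26.4 under TNF inhibition, and their part in the Cybb value was not tested. In the prostaglandin list Ptges, a prostaglandin E synthase, rose by 1.18 and Ptgs2 did not pass (0.77, adjusted p = 0.0584), with 2 of 8 higher and 3 lower in all. The higher share was not far above the 19.6% of all genes. NF-kappaB feedback genes were mixed, 7 higher and 4 lower of 16 (median 0.14), the lower share not far above the 19.3% of all genes. Immediate-early and heat-shock genes were also mixed, 5 higher and 4 lower of 14. Cytokine receptors had 2 of 9 higher, near the 19.6% of all genes, the TNF receptors Tnfrsf1b (0.99) and Tnfrsf1a (0.26). Tnfrsf1a lost its call under 7 alternatives, among them the WT mouse of the same library (0.18, adjusted p = 0.396) and leaving out TNF-inhibited mouse 1 (0.19) or 2 (0.23) or the WT mouse of the untreated (0.25) or IL-17-inhibited library (0.26). Cell-cycle genes had 1 of 14 higher and 1 lower.

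By fold, the genes farthest above WT among those with at least 5 CPM in the higher group were Wfdc12, Nlrp3, U90926, Car9, Draxin, C1rb, Kng1, Hp, Fpr2 and Ctla2a. Several of these rest on few WT counts, 2 UMIs in all for Nlrp3, the inflammasome sensor, and 4 each for Draxin and for Car9, a hypoxia-induced carbonic anhydrase, and Wfdc12, U90926 and Kng1 did not pass against the WT mouse of the same library (adjusted p = 0.205, 0.118 and 0.0503), nor did Wfdc12 without the WT mouse of the untreated library. The lowest were Mrgprg, Smpd3, Scg3, Col6a6, Opcml, Myoc, Dpp4, Adamts19, Col15a1 and Hmcn2. With each class weighted equally Mrgprg was at 0.11, Dpp4 at 0.051 and Col6a6 at -0.92 (limma, adjusted p = 0.129), and these did not pass. The rest still passed as lower, from -1.16 (Hmcn2) to -3.81 (Scg3).

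Lining fibroblasts were the class with the most genes away from WT. Lcn2 was at 172, 152 and 28.0 CPM in WT Lining cells and 13153, 18289 and 14961 CPM under TNF inhibition (6.96, SE 0.51, adjusted p = 1.42e-07). Saa3 was at 1376, 1131 and 375 against 81580, 91530 and 45609 CPM (6.23, SE 0.54), and Hp at 143, 480 and 191 against 34662, 34215 and 24406 CPM (6.83). None of these overlapped, as was so for 32.3% of all genes in this class. Cfb was at 62.0, 49.4 and 56.0 against 2072, 2022 and 1621 CPM (5.09) and Iigp1 at 8.61, 4.94 and 6.99 against 370, 350 and 1031 CPM (6.35). Mmp3, low in healthy lining at 998, 431 and 191 CPM, was at 24245, 18885 and 8766 CPM (4.98). The acute-phase list was higher in 9 of 9 genes (median 4.47), antigen presentation in 10 of 10 (2.98), the interferon-gamma list in 16 of 18 (3.75) and the antiviral list in 15 of 18 (3.31), where the median of all genes was 0.041.

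In Lining cells Prg4 did not pass while most other lining genes were low. Prg4 was at 66929, 89149 and 70052 CPM in WT and 78665, 70604 and 85595 CPM under TNF inhibition, with overlap (0.05, adjusted p = 0.896). Htra4 was at 2402, 2446 and 2469 against 69.5, 76.5 and 247 CPM (-4.29, adjusted p = 4.32e-05) and Clic5 at 1451, 1294 and 1170 against 84.9, 105 and 287 CPM (-3.09). In all 7 of 10 lining genes were lower and 1, Pdpn, higher (median -1.76). Prelp, a proteoglycan gene, was at 138, 110 and 121 against 18.9, 8.16 and 19.6 CPM (-3.16), and Uxs1, which makes UDP-xylose for proteoglycan chains, at 174, 268 and 203 against 37.8, 40.2 and 50.1 CPM (-2.36). Car4, a carbonic anhydrase gene that led by fold, had 0 UMIs in WT Lining cells and was at least 58.0-fold higher, taking 3 counts over the WT group as the floor. Markers of bone cells (368 to 814 CPM in WT, 19.1 to 30.5 under TNF inhibition), mural cells (312 to 648 and 87.6 to 134) and Schwann cells (153 to 194 and 25.1 to 28.8) were lower with the lining genes in this class, and their part was not tested.

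The Mmp3+ class was the largest under TNF inhibition and the rarest in WT. Its cells under the WT hashtag already had high Saa3, at 25704, 21607 and 5189 CPM. Under TNF inhibition Saa3 was at 79251, 71192 and 54898 CPM (1.97, adjusted p = 0.0118). The groups did not overlap, as for 29.7% of all genes in this class. Hashtag 4 had the highest raw count in only 6.25%, 11.8% and 12.5% of these WT cells. By library, 0, 7 and 0 of them had more Y-linked than Xist counts, and 9, 4 and 10 the other way. Whether all of them came from WT mice was not tested. Mmp3 was at 9918, 10842 and 6445 against 23433, 20652 and 24556 CPM (1.34), and Hp at 711, 1134 and 1478 against 10384, 12445 and 7718 CPM (3.19). Ptx3, a soluble pattern-recognition protein gene, was at 161, 76.1 and 52.5 against 1285, 772 and 1377 CPM (3.68). Matrix genes were higher here: 9 of 21 collagen and matrix genes rose and 1 fell (median 0.57, all genes 0.13), among them Postn, periostin, which was at 161, 91.3 and 96.9 CPM in WT, 585, 638 and 588 in untreated and 405, 392 and 207 under TNF inhibition (1.59, adjusted p = 0.00379). Il17ra, the IL-17 receptor, was at 20.1, 15.2 and 12.1 against 61.0, 51.1 and 60.7 CPM (1.92). Its WT levels rest on few counts, since the WT sums of this class held 119721 to 204102 UMIs. Proteases were higher in 9 of 19 and lower in 1, and the acute-phase list higher in 5 of 9. Of the interferon-gamma list 2 of 18 and of the antiviral list 1 of 19 passed, with medians of 1.69 and 1.04, in a class where the SE was largest. Several genes that led by fold had 0 UMIs in WT and give bounds only, such as Ccbe1, a secreted lymphangiogenic protein gene, at least 3.24-fold higher.

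In Il6+ fibroblasts, the class with the most WT cells of those tested, C3 was at 2530, 1975 and 2113 CPM in WT and 11447, 9058 and 6531 CPM under TNF inhibition (2.03, adjusted p = 5.74e-06). The groups did not overlap, as for 27.2% of all genes in this class. Cxcl13 was at 79.4, 47.0 and 83.9 against 886, 2056 and 821 CPM (4.16, adjusted p = 1.46e-05), Tnfsf11 at 7.14, 3.92 and 16.1 against 56.4, 113 and 51.6 CPM (3.12, adjusted p = 0.00567) and Il33 at 44.5, 29.1 and 39.8 against 229, 243 and 146 CPM (2.44). The lymphoid-niche list was higher in 5 of 7 genes, the interferon-gamma list in 15 of 18 (median 2.23), the antiviral list in 9 of 18 (1.54) and antigen presentation in 10 of 13 (1.81). Lcn2 was at 332, 617 and 260 against 3520, 3482 and 5143 CPM (3.33). Lower genes included Col15a1, at 137, 126 and 106 against 21.0, 12.6 and 9.07 CPM (-3.08), and Tgfbi, at 370, 330 and 392 against 83.2, 73.9 and 75.8 CPM (-2.23). Only 29 of 11439 genes (0.254%) differed between TNF-inhibited and untreated mice in this class.

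In Cd200+ fibroblasts Il6, Ptx3, Ccl2 and Cxcl10, named here after their values were seen, were above both WT and untreated mice. Il6 was at 639, 575 and 511 CPM in WT, 1186, 1778 and 1427 in untreated and 3727, 2147 and 3194 in TNF-inhibited mice. The 3 groups did not overlap, and between TNF-inhibited and WT mice 23.6% of all genes in this class did not. Il6 rose by 2.39 over WT (adjusted p = 3.26e-06) and by 1.04 over untreated mice (adjusted p = 0.0233), in a comparison in which 99 of 9264 genes passed (1.07%). Ptx3 was at 210, 265 and 349 CPM in WT and 2662, 1967 and 2136 under TNF inhibition (3.04, adjusted p = 1.38e-07), and was above untreated mice by 1.91 (adjusted p = 1.06e-04). Ccl2, a monocyte chemokine, was at 754, 1088 and 317 against 6629, 4891 and 7270 CPM (3.12), and Cxcl10 at 241, 565 and 233 against 2898, 1980 and 6819 CPM (3.51), above untreated mice by 1.81 (adjusted p = 0.0166) and 2.17 (adjusted p = 0.0145). The interferon-gamma list was higher in 15 of 18 (median 3.34) and the antiviral list in 11 of 18 (2.37). Ifi44 and Tgtp1, which led by fold, had 0 UMIs in WT and were at least 7.54-fold and 5.79-fold higher, Tgtp1 with a near-identical copy, Tgtp2.

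Saa3 did not pass in this class, at 1667, 3271 and 499 against 4551, 5269 and 4092 CPM (1.36, adjusted p = 0.0628), and 3 of 8 acute-phase genes were higher. The gene Cd200 overlapped WT here too, at 384, 397 and 359 against 195, 207 and 443 CPM (-0.44, adjusted p = 0.511), and Dkk3 was lower by 0.50 (adjusted p = 0.0396). Cd34 was at 89.2, 49.7 and 99.8 against 12.4, 16.6 and 9.74 CPM (-2.63). Bone-cell markers summed to 2596 to 4992 CPM in WT and to 438 to 864 under TNF inhibition in this class, and their part in its differences was not tested.

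The Pi16+ class could not be tested, since its 9 cells under TNF inhibition fell below 10 cells in every mouse. In WT it held 736 cells and 7742450 UMIs, with Pi16 at 1260 CPM without TMM scaling (exact Poisson 95% interval 1235 to 1286, which covers counting error only), Cd34 at 1099, Clec3b at 1237, Mmp3 at 662 and Dpp4 at 52.2.

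**Figure D4:**
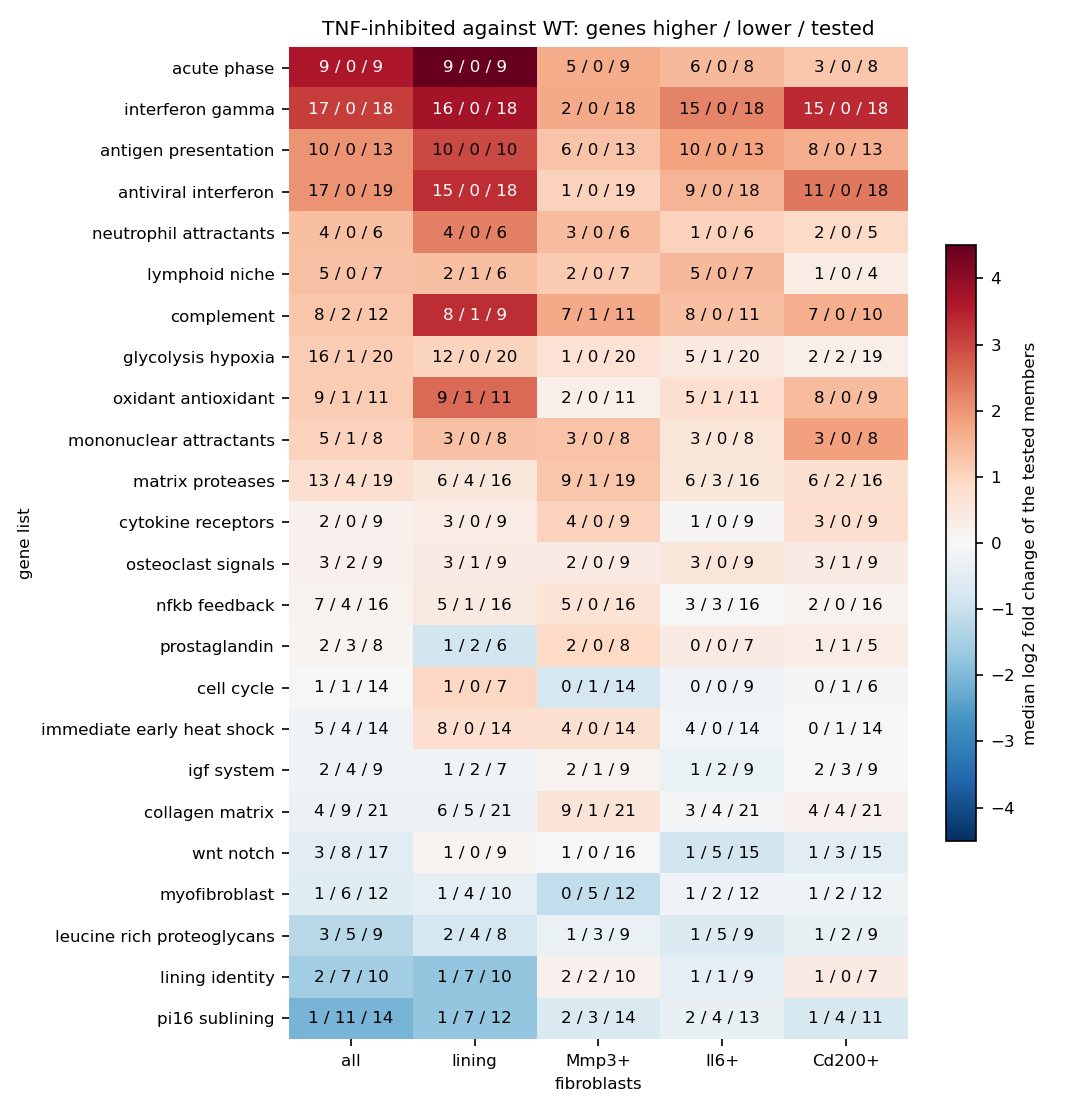
Number of genes higher, lower and tested against WT for each gene list, over all fibroblasts and within the 4 testable classes, with colour for the median log2 difference of the list. The acute-phase list is higher in 9 of 9 genes in Lining cells and in 3 of 8 in Cd200+ cells, and the lining list is lower in 7 of 10 in Lining cells and in none of 7 in Cd200+ cells.

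Whether the distance from WT differed between the 4 classes was tested within mice, as the class-by-group interaction with the mouse as a block. It did for 860 of 10206 genes (8.43%). The count was 440 and 428 without TNF-inhibited mouse 1 or 2, and 515 and 534 without the WT mouse of the untreated or the TNF-inhibited library, and 781 with the Mmp3+ class left out. Of the lists, 16 of 21 tested collagen and matrix genes, 9 of 11 antigen-presentation genes, 8 of 10 complement genes, 6 of 9 acute-phase genes, 9 of 18 genes of the interferon-gamma list and 4 of 18 of the antiviral list passed, and none of 8 cell-cycle genes.

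The lowest p among abundant genes was that of Saa3 (adjusted p = 1.423e-08), with log2 differences from WT of 6.23 in Lining, 1.97 in Mmp3+, 1.83 in Il6+ and 1.36 in Cd200+ cells. Hp followed the same order (6.83, 3.19, 2.05 and 0.89), and Cfb was farthest from WT in Lining cells (5.09) and at 2.11 to 2.77 in the other classes. Gnpnat1, an enzyme of amino-sugar synthesis, was low in Lining cells alone among the 4 (-1.80, from 264, 283 and 345 to 80.5, 74.7 and 104 CPM), with 0.01, 0.04 and -0.13 in the others. Olfml2b, a matrix protein gene, fell in Lining cells (-2.29), rose in Mmp3+ cells (1.08) and was at -0.04 and 0.02 in Il6+ and Cd200+ cells. Tgfbi was lower by 2.65, 2.19, 2.23 and 2.35 in the 4 classes, and Tnfsf11 higher by 3.00, 3.05, 3.12 and 2.10. Neither gene passed the interaction test (adjusted p = 0.82 and 0.70). In simulated data with genes changed in Lining cells alone, that test recovered 9% of 2-fold and 55% of 4-fold changes. A gene that did not pass may thus still differ between classes.

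**Figure D5:**
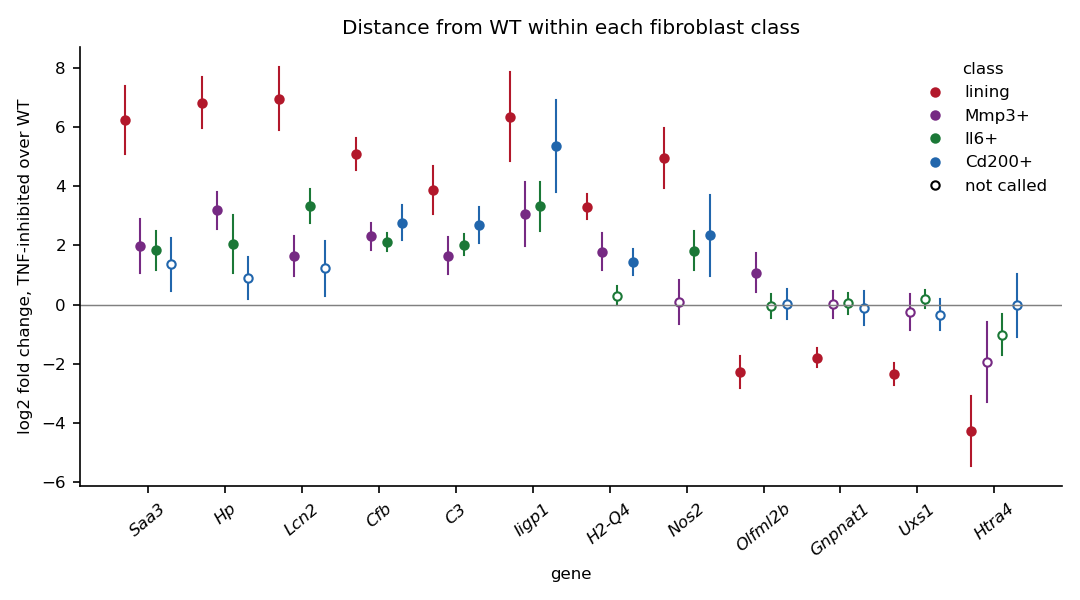
Log2 difference between TNF-inhibited and WT mice of 12 genes in each of the 4 testable classes, with 95% intervals; filled points passed the test in that class and open points did not. Saa3, Hp, Lcn2 and Cfb lie farthest from 0 in Lining cells, and Gnpnat1 and Uxs1 lie below 0 in Lining cells and near 0 in the other classes.

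Some genes could be placed near WT with precision. The 95% interval of the difference lay within 2-fold of WT for 8532 genes over all fibroblasts (59.5%), and for 7209 in Il6+ (63.0%), 4646 in Lining (46.0%), 4384 in Cd200+ (47.3%) and 3371 in Mmp3+ cells (26.4%). Col1a1 was among them over all fibroblasts.

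RNA shared between droplets bears on genes as abundant as Saa3. In chondrocytes Saa3 was at 663 to 4306 CPM, without TMM scaling, in WT and 3258 to 5949 under TNF inhibition, and in osteoblasts at 666 to 2232 and 12941 to 18708. In Cd200+ fibroblasts it was at 537 to 3427 and 3794 to 4751, and in Lining cells at 429 to 1615 and 39205 to 80673. The part of free RNA in the values of the Il6+ and Cd200+ classes was not tested. Nor was its part in the WT levels, which come from cells that shared a library with arthritic cells.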

How the data were processed

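Single-cell 3' RNA libraries (10x, v3.1) were aligned to mm10 with Cell Ranger, version 6.0.6 per the submitters' processing notes and 6.0.0 per the file headers. The authors deposited UMI counts of 32285 genes and of hashtags for each cell barcode, with a table of cells that gives genotype, treatment, hashtag and class, per the file headers. The authors' hashtag margin and stress score are scores, and its mitochondrial ratio is a fraction computed by the authors. How these were made is not stated in the labels. The cells are those the authors annotated and assigned to 1 hashtag, and no doublet caller was run.

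Raw counts were summed per mouse over all fibroblasts and per class, leaving out sums under 10 cells. Genes were tested in edgeR 4.0.16 (R 4.3.3): filterByExpr, TMM scaling, quasi-likelihood fit over 12 mice (3 WT, 3 untreated, 3 TNF-inhibited and 3 IL-17-inhibited, the last for the spread), Benjamini-Hochberg adjustment over all genes and a threshold of 0.05; glmTreat gave calls beyond 2-fold. Log2 differences are of TNF-inhibited minus WT unless another pair is named. The script was tested on simulated data. DESeq2 1.42.0, limma 3.58.1 and other settings were alternatives.

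Members and gene lists were chosen with earlier results of these data known. Named genes are 19 set genes, up to 4 called members of each list with the largest change and at least 5 CPM and list exceptions, the 10 highest and lowest genes over all fibroblasts, the 5 highest and lowest per class, and the 8 with the lowest interaction p. Other list members are given as examples of their list, chosen after their values were seen. Intervals cover counting error or the spread between these mice only. Depth per mouse and class is given with the results. A member of the TGF-beta and contraction list is not reported here.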

Additional observations from a re-analysis of the deposited data

Results flagged for a closer look

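The log2 difference between TNF-inhibited and WT mice differed between the 4 testable classes for 860 genes, by the class-by-group interaction within mice (edgeR quasi-likelihood F test, adjusted p under 0.05). The abundant genes with the lowest adjusted p were Saa3 (1.423e-08), Hp (1.412e-07), H2-Q4 (1.951e-07), Olfml2b (2.602e-07), Cfb (5.385e-07), Gnpnat1 (1.438e-06), Uxs1 (1.438e-06) and Lcn2 (1.947e-06). H2-Q4, a class I gene that shares sequence with H2-K1 and H2-D1, was at 3.30 in Lining, 1.79 in Mmp3+, 0.29 in Il6+ and 1.45 in Cd200+ cells. Lcn2 was at 6.96, 1.65, 3.33 and 1.23, and Uxs1 at -2.36, -0.24, 0.20 and -0.35.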

How the results depend on the processing

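Over all fibroblasts, the 5588 genes became 2788 with library as a term or with the WT mouse of the same library alone, which are the same fit, and 3134 (2022 higher, 1112 lower) with each class weighted equally in limma. With that library setting the counts were 894 in Lining, 407 in Mmp3+, 157 in Il6+ and 166 in Cd200+ cells. With 16 cells per mouse they were 558, 210, 94 and 47, and with the 6 TNF-inhibited and WT mice alone 330 in Mmp3+ and 829 in Il6+ cells. Leaving out each mouse gave 4589 to 5939 genes over all fibroblasts, 2334 to 3623 against the same-library WT mouse, 612 to 918 beyond 2-fold, 1569 to 2326 in Lining, 575 to 802 in Mmp3+, 707 to 1247 in Il6+ and 467 to 690 in Cd200+ cells, and 428 to 985 for the difference between classes. DESeq2 called 1120 genes in Mmp3+ cells. In percentage points, the Cd200+ share difference turned to -1.52 in cells with a hashtag margin of at least 1, an alternative chosen after seeing the data, where that of Pi16+ was -40.7. Leaving out each mouse, share differences were -1.46 to 2.25 for Cd200+, -10.8 to -3.71 for Il6+, 0.209 to 3.30 for Lining, 43.9 to 51.8 for Mmp3+ and -43.3 to -42.2 for Pi16+. Of 160 named genes, 102 kept direction and call under all 16 alternatives and 9 reversed under at least 1. With classes weighted equally Dkk3 was at -0.14, Pi16 1.43, Dpp4 0.051, Hpgd 0.061, Mrgprg 0.11, Cox4i2 -0.73 and Acta2 -0.88. With library as a term Hpgd was at 0.13, Snorc 0.17 and Acta2 -0.54. Acta2 was also at -0.0029 with DESeq2, -0.0040 with 6 mice, -0.10 without cells of the rarer sex, -0.30 without the WT mouse of the untreated library and -0.043 without TNF-inhibited mouse 3, and at 0.37 without the WT mouse of the TNF-inhibited library, and Cd200 at 0.059 and 0.060 without TNF-inhibited mouse 1 and 2 and at -0.63 without mouse 3. The cause was not tested, save that fewer mice and cells enter by construction. The hashtag margin setting left 5, 2 and 7 WT Mmp3+ cells, and the Pi16+ class held too few, so neither gave a test. Single mice could not be paired, because each library held 1 WT mouse beside 3 mice of a single arthritic group. In depth, the WT sums of the Mmp3+ class held 119721 to 204102 UMIs.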
